A study of Rattus norvegicus with 9 samples.

Results

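The Hox genes of clusters A, B, C and D were described in rat dorsal root ganglia (DRGs), as every gene whose symbol was Hoxa, Hoxb, Hoxc or Hoxd followed by a number. The rule took 41 of the 20413 genes in the table, and it used names only, not measured values. The 41 entries stood for 39 symbols, because some genes, Hoxa2 among them, were listed under 2 gene identifiers. By cluster, 13 entries belonged to Hoxa, 10 to Hoxb, 9 to Hoxc and 9 to Hoxd.

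Hox genes encode homeodomain transcription factors that give cells their position along the axis of the body from head to tail. Within a cluster the genes lie in the order in which they act along that axis, with low paralog numbers towards the head and high numbers towards the tail, and genes of the same number in different clusters are called paralogs. In the nervous system they set hindbrain segments, the motor columns of the spinal cord and parts of the sensory circuits, and the pattern laid down in the embryo is known to persist in many adult tissues. HOX proteins bind DNA with cofactors of the PBX, MEIS and PREP (Pknox) families, and Polycomb and Trithorax complexes keep the genes silent or active.

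DRGs contain sensory neuron cell bodies together with satellite glia, Schwann cells and connective tissue. RNA-Seq had been carried out on the right, ipsilateral L4–6 DRGs of male Sprague-Dawley rats of 8–10 weeks, with 3 rats and 3 libraries in each of 3 groups, 9 libraries in all, collected on day 10. In the Sham group (labelled Con) the ankle carried a cut O-ring that left the blood flow free. In the chronic post-ischemia pain (CPIP) group a tight O-ring blocked the flow to the hind paw for 3 h before reperfusion, which models complex regional pain syndrome type I. The CPIP+EA group had the same injury and then 100 Hz electroacupuncture (EA) at the ST36 and BL60 points of both sides, once a day for 10 days. All groups shared the strain, the sex, the anesthesia and the day of collection. EA came with light restraint and needles, and with no such control group here, restraint, needling and current cannot be told apart. The samples are labelled as L4–6 DRGs, so a level is taken to cover the ganglia L4, L5 and L6 together, in proportions that are not given in the sources used here. With no other segment measured, nothing here compares lumbar with thoracic or sacral ganglia.

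Values were FPKM, the fragments per kilobase of transcript scaled to a library's mapped fragments. Their sum still differs between libraries, so small differences between libraries can depend on the scaling. FPKM values carry no counts, so the counting error of a gene is not known from them, and the 3 libraries per group limit the precision. The read totals listed in the study were nearly equal between libraries. The FPKM of all genes summed to between 445647 and 482940 per library. The tissue label was checked on the summed FPKM of marker lists. Sensory neuron markers, all 12 in the table, summed to between 8424 and 11046, Schwann cell markers to between 4989 and 12373, satellite glial cell markers to between 288 and 329, and endothelial and mural markers to between 112 and 167. Spinal cord glia markers, which would mark cord tissue, summed to between 9.12 and 20.9, with Olig1 and Olig2, which define the oligodendrocyte lineage, at no more than 0.05 FPKM in any library. Mog, a myelin gene of oligodendrocytes, was between 2.26 and 3.12 FPKM, and Gfap, found in astrocytes and also in glia of peripheral nerve, between 6.06 and 16.65. Of the other cell types a dissection could bring in, skeletal muscle markers reached 146.59 in CPIP replicate 2 against between 7.73 and 44.77 in the other libraries, and neutrophil and marrow markers reached 628.13 in CPIP+EA replicate 3 against between 34.75 and 265.07. Fibroblast and meningeal markers summed to between 1307 and 1595 in Sham, 1153 and 1459 with CPIP and 773 and 1473 with CPIP+EA.

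Of the 41 Hox entries, 30 were above 0 in all 9 libraries and 27 had a mean of at least 1 FPKM. The filter for testing, a mean of at least 0.1 FPKM, passed 33. Among the 8 that failed it were Hoxb1, Hoxc12, Hoxd12, Hoxa13, Hoxb13, Hoxc13 and Hoxd13. Of the genes reported here, Hoxa11, with a mean of 0.212 FPKM, stood nearest inside the filter and Hoxc13, with 0.0367, nearest outside it. The 41 entries together summed to between 119.86 and 138.79 FPKM per library, or 134 ± 8.60 in Sham, 127 ± 5.26 with CPIP and 126 ± 5.80 with CPIP+EA (SD, n = 3 each).

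**Figure D1:**
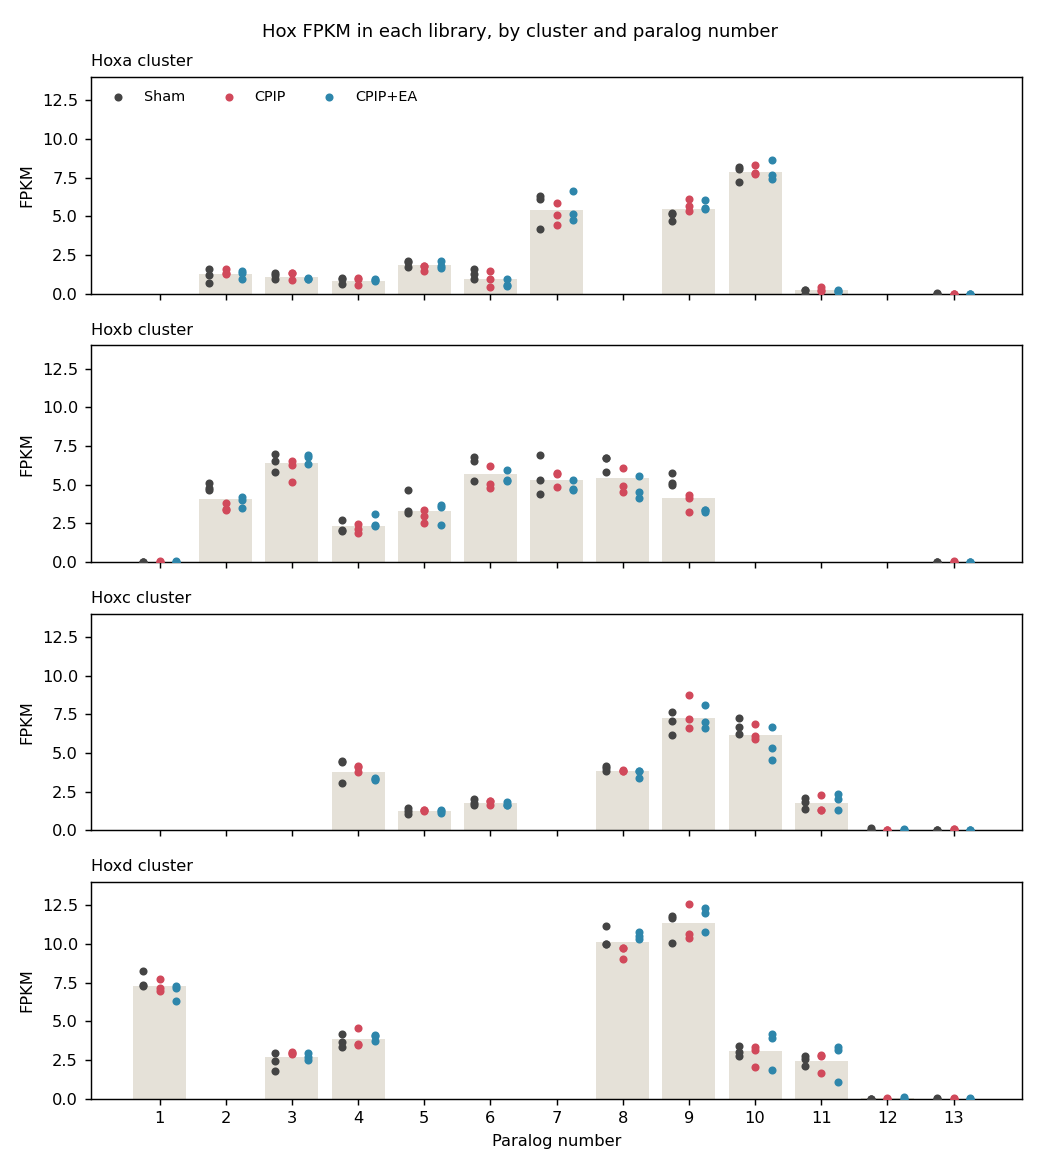
FPKM of Hox genes (vertical axes) by paralog number (horizontal axis), with 1 panel for each cluster. Points are the 3 libraries of Sham, CPIP and CPIP+EA, bars the mean of the 9 libraries, and the 2 entries of Hoxa2 are added together; Hoxd9 at 11.4 FPKM is the highest bar, and numbers 12 and 13 stay at or under 0.15 FPKM in every cluster.

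Levels followed paralog number in steps rather than evenly. Paralog number 9 held the largest share of the summed Hox FPKM, 22.0% ± 0.846 (SD over the 9 libraries), followed by number 8 with 15.1% ± 1.18 and number 10 with 13.3% ± 0.789, an order of 8 and 10 that turned when near-identical entries were added to the Hoxa genes. Number 11 held 3.46% ± 0.680, and numbers 12 and 13 held 0.0364% and 0.0411%. Numbers 1 to 7 held between 4.16% and 8.41% each. The share of number 9 was 21.3% ± 0.419 in Sham, 22.4% ± 1.17 with CPIP and 22.1% ± 0.530 with CPIP+EA (SD, n = 3 each), so the groups differed by about the spread within them. Number 9 also stood first when the mean log2 value replaced the sum.

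**Figure D2:**
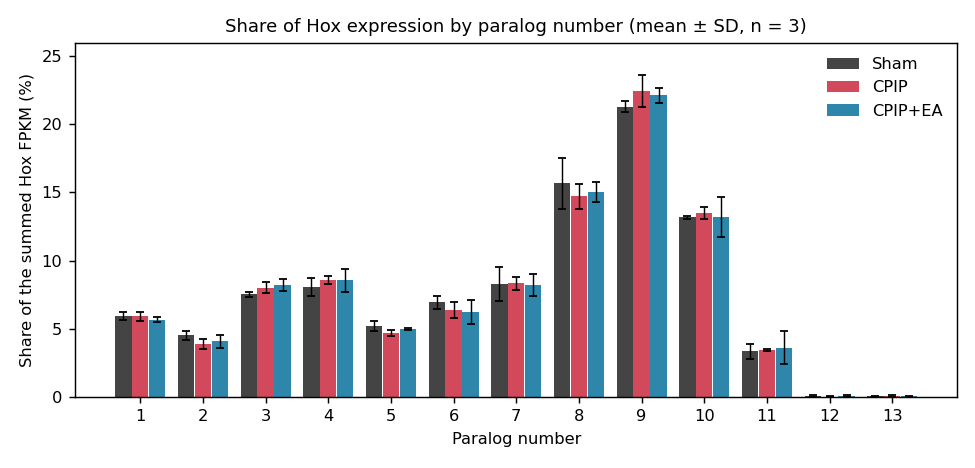
Share of the summed Hox FPKM in percent (vertical axis) held by each paralog number (horizontal axis). Bars are the mean of 3 libraries of Sham, CPIP and CPIP+EA and error bars the SD; number 9 holds 21.3 to 22.4% in each group and number 11 between 3.33 and 3.62%.

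The Hoxd cluster is used to show the step from active to silent genes because its 9 genes all had a promoter in the RefSeq table. For the Hoxd genes at this step, 300 bases of promoter are shown, 250 before and 50 after the annotated start, from RefSeq on build GRCr8, 5′ to 3′ on the plus strand. Hoxd9, the highest Hox gene here, lies at chr3:80007756-80008055, Hoxd10 at chr3:80001697-80001996, Hoxd11 at chr3:79992144-79992443 and Hoxd12, near 0 here, at chr3:79984856-79985155. Their mean levels were 11.4, 3.08, 2.47 and 0.0222 FPKM in this order. Capitals mark a match to TGATNNAT, a site bound by HOX with PBX, on either strand.
Hoxd9: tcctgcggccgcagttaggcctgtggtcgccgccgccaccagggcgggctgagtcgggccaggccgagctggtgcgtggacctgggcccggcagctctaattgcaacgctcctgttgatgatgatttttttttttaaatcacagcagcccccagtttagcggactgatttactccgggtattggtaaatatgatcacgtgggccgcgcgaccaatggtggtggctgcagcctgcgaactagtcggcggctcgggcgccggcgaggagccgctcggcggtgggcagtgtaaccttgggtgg
Hoxd10: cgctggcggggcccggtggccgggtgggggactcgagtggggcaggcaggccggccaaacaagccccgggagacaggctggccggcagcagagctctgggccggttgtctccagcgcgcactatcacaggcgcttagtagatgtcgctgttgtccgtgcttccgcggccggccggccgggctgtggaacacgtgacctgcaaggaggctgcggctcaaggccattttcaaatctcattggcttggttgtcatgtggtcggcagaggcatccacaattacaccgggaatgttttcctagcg
Hoxd11: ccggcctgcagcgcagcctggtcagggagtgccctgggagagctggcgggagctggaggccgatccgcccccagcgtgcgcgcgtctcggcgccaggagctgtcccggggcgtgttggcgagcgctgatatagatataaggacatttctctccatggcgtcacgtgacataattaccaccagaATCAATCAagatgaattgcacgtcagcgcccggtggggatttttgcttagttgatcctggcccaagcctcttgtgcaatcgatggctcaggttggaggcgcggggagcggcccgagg
Hoxd12: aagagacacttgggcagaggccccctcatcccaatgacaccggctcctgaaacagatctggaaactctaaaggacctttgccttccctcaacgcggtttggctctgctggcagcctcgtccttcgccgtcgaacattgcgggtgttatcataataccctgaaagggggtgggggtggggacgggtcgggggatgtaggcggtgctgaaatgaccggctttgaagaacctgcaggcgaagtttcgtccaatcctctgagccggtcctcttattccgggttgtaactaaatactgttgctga

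The match in Hoxd11 starts at position -67 from the annotated start, and lies on the other strand of the printed sequence. TGATNNAT occurred in 9.10% of the 33469 promoters of the same length in RefSeq. None of the 4 windows held TATAAA, the core of the TATA box and found in 14.2% of all promoters, TTTATNG, a site for the caudal factors found in 11.3%, or TGACAG, a MEIS site found in 19.0%, each searched on both strands. The 4 windows had 62.7, 64.7, 62.3 and 55.3% G and C and 27, 24, 25 and 16 CpG pairs, against medians of 51.7% and 7 over all promoters. The near-silent Hoxd12 had the lowest of the 4 values and still lay above the median. Other genes of the cluster did not follow this order. Hoxd13, at 0.00667 FPKM, had 74.7% G and C, 36 CpG pairs and 2 matches to TATAAA. Hoxd4, at 3.86 FPKM, had 47.3% and 12 CpG pairs. A link between these values and the levels was not tested. The promoter table used here matched 20 of the 39 symbols. In the RefSeq annotation the genes kept the order of their paralog numbers along the chromosome in all 4 clusters, on chromosomes 4 (Hoxa), 10 (Hoxb), 7 (Hoxc) and 3 (Hoxd).

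Among paralog numbers 1 to 3, which act in the hindbrain and the pharyngeal arches of the embryo, Hoxd1 and Hoxb3 had the highest means, with 7.28 and 6.37 FPKM and overlapping libraries. Hoxd1, known in mice for shaping the central projections of nociceptive neurons, was at 8.25, 7.29 and 7.37 FPKM in Sham, 6.99, 7.13 and 7.74 with CPIP and 7.28, 7.16 and 6.34 with CPIP+EA. Its groups lay close together, with CPIP+EA just below Sham. Hoxb1, which sets rhombomere 4 of the hindbrain, stood at 0 in 7 of the libraries, with 0.06 in the other two. Hoxd1 was thus above its paralog Hoxb1 in every library.

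Hoxb2, a hindbrain gene that acts downstream of Hoxb1, was at 4.66, 4.80 and 5.09 FPKM in Sham, 3.80, 3.34 and 3.45 with CPIP and 4.23, 3.47 and 4.00 with CPIP+EA. The Sham libraries were all above those of the other groups. Hoxa2, a selector of the second pharyngeal arch, had means of 0.420 and 0.847 FPKM under its 2 identifiers, and where the first was listed at 0, in Sham replicate 1 and CPIP+EA replicate 1, the other stood at 1.21 and 0.92. Added together, the Hoxa2 entries ranged from 0.71 to 1.60 FPKM.

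Hoxa3, needed for the thymus and parathyroid, was at 1.2, 0.96 and 1.37 FPKM in Sham, 0.86, 1.34 and 1.35 with CPIP and 0.97, 1.0 and 0.95 with CPIP+EA. Hoxb3 was at 6.51, 5.82 and 7.01 FPKM in Sham, 5.20, 6.51 and 6.30 with CPIP and 6.90, 6.32 and 6.79 with CPIP+EA. Hoxd3 was at 2.98, 2.46 and 1.82 FPKM in Sham, 3.04, 2.90 and 2.99 with CPIP and 2.52, 2.93 and 2.72 with CPIP+EA. Hoxb3 was more than 2 FPKM above Hoxd3 in every library, and the groups overlapped for all 3 genes. By its mean over the libraries Hoxb3 was also the highest Hoxb gene. Hoxb8 was above it in Sham replicates 1 and 2 and in CPIP replicate 1, and Hoxb6 in Sham replicate 1.

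Numbers 4 and 5 pattern the neck and, for Hoxa5 and Hoxc5, the phrenic motor neurons. Hoxb4 was at 2.74, 2.01 and 2.07 FPKM in Sham, 2.11, 1.89 and 2.43 with CPIP and 2.37, 2.31 and 3.09 with CPIP+EA. Hoxc4 was at 4.48, 3.06 and 4.42 FPKM in Sham, 3.79, 4.19 and 4.08 with CPIP and 3.39, 3.35 and 3.26 with CPIP+EA. Hoxd4 was at 3.65, 3.37 and 4.16 FPKM in Sham, 3.45, 4.58 and 3.57 with CPIP and 4.13, 3.73 and 4.09 with CPIP+EA. For Hoxc4, all CPIP+EA libraries were below all CPIP libraries, while Sham held both the lowest and the highest value. Hoxa4, with a mean of 0.851 FPKM, ranged from 0.58 to 1.01.

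Hoxa5 was at 2.05, 1.74 and 2.13 FPKM in Sham, 1.49, 1.76 and 1.76 with CPIP and 1.77, 1.65 and 2.09 with CPIP+EA. Hoxb5 was at 4.64, 3.31 and 3.20 FPKM in Sham, 2.55, 3.35 and 3.01 with CPIP and 3.53, 3.71 and 2.41 with CPIP+EA. Hoxc5 was at 1.06, 1.24 and 1.48 FPKM in Sham, 1.31, 1.25 and 1.31 with CPIP and 1.14, 1.26 and 1.32 with CPIP+EA. The groups overlapped for all 3, and in every library the deposited value of Hoxb5 was the highest of the paralogs with number 5.

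Numbers 6 and 7 act in the trunk and at the level of the forelimb. Hoxb6 was at 6.54, 5.26 and 6.77 FPKM in Sham, 4.79, 6.20 and 5.06 with CPIP and 5.23, 5.29 and 5.94 with CPIP+EA. Hoxc6, a gene of the brachial motor columns, was at 1.78, 1.64 and 2.03 FPKM in Sham, 1.63, 1.88 and 1.90 with CPIP and 1.66, 1.62 and 1.81 with CPIP+EA. Hoxa6, with a mean of 0.963 FPKM, was at 1.60, 0.97 and 1.25 in Sham, 1.5, 0.95 and 0.41 with CPIP and 0.57, 0.48 and 0.94 with CPIP+EA. The Hoxa6 values of Sham were above those of CPIP+EA, by 0.03 FPKM at the nearest pair, and CPIP spanned most of the range of both.

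Hoxa7 was at 6.32, 4.21 and 6.15 FPKM in Sham, 5.09, 5.88 and 4.41 with CPIP and 5.13, 6.64 and 4.78 with CPIP+EA. Hoxb7 was at 5.31, 4.38 and 6.93 FPKM in Sham, 4.83, 5.74 and 5.71 with CPIP and 4.70, 5.33 and 4.67 with CPIP+EA. These 2 genes, which are both expressed widely in the trunk, were at like levels with overlapping groups.

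Numbers 8 and 9 held Hoxd8 and Hoxd9, the Hox genes with the highest deposited means. Hoxb8, without which mice show defects of the dorsal horn and altered pain responses, was at 6.73, 6.75 and 5.84 FPKM in Sham, 6.09, 4.94 and 4.53 with CPIP and 4.56, 5.55 and 4.11 with CPIP+EA. Hoxc8, which acts in brachial motor neurons, was at 3.84, 4.16 and 4.02 FPKM in Sham, 3.86, 3.86 and 3.93 with CPIP and 3.40, 3.86 and 3.84 with CPIP+EA. Hoxd8 was at 9.99, 11.14 and 10.01 FPKM in Sham, 9.05, 9.77 and 9.73 with CPIP and 10.31, 10.55 and 10.76 with CPIP+EA. For Hoxb8 the CPIP+EA libraries were all below Sham, and for Hoxd8 the CPIP libraries were all below those of both other groups.

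Hoxa9 was at 5.16, 4.70 and 5.19 FPKM in Sham, 5.67, 5.35 and 6.15 with CPIP and 5.51, 5.46 and 6.03 with CPIP+EA. Hoxb9 was at 5.74, 5.11 and 5.00 FPKM in Sham, 4.16, 3.24 and 4.36 with CPIP and 3.22, 3.36 and 3.36 with CPIP+EA. Thus Hoxa9 was lowest in Sham and its paralog Hoxb9 was highest in Sham, each without overlap with the other groups. Hoxc9, which sets thoracic motor neuron identity, was at 7.67, 6.15 and 7.07 FPKM in Sham, 6.62, 8.74 and 7.21 with CPIP and 8.10, 7.03 and 6.63 with CPIP+EA. Hoxd9, a gene of the hind limb and lumbar region, was at 11.66, 10.08 and 11.84 FPKM in Sham, 10.37, 10.68 and 12.62 with CPIP and 12.04, 12.34 and 10.78 with CPIP+EA. The groups of Hoxc9 and Hoxd9 overlapped. Hoxd9 had the highest mean of the deposited Hox values, but its libraries overlapped with those of Hoxd8, the next gene, whose mean was 10.1 FPKM.

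Numbers 10 and 11 pattern the lumbar and sacral axis and the limbs, and Hoxc10 and Hoxd10 are known in lumbar motor neurons. Hoxa10 was at 8.21, 7.22 and 8.05 FPKM in Sham, 7.82, 8.29 and 7.76 with CPIP and 7.68, 8.65 and 7.39 with CPIP+EA. Hoxc10 was at 7.26, 6.22 and 6.69 FPKM in Sham, 5.93, 6.88 and 6.13 with CPIP and 6.70, 5.31 and 4.53 with CPIP+EA. Hoxd10 was at 2.76, 3.03 and 3.42 FPKM in Sham, 2.04, 3.13 and 3.32 with CPIP and 3.90, 4.22 and 1.89 with CPIP+EA. Every Hoxd10 value was below every Hoxc10 value, and CPIP+EA held both the lowest and the highest Hoxd10 library.

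Hoxc11 was at 1.36, 2.10 and 1.87 FPKM in Sham, 2.32, 1.35 and 1.31 with CPIP and 2.02, 2.35 and 1.35 with CPIP+EA. Hoxd11, which acts with Hoxa11 in the kidney and the limb skeleton, was at 2.11, 2.54 and 2.77 FPKM in Sham, 1.64, 2.79 and 2.81 with CPIP and 3.16, 3.37 and 1.07 with CPIP+EA. CPIP+EA again held the lowest and the highest Hoxd11 library, and the groups of both genes overlapped. Hoxa11 had a mean of 0.212 FPKM and ranged from 0 to 0.46. The 6 genes with numbers 12 and 13, which act in digits, genitalia, prostate, hair and nails, had a highest value of 0.15 FPKM, for Hoxc12 in Sham replicate 2, and most of their values were listed at 0.

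The level of the Hoxa genes depended on how near-identical entries were read. The values of Hoxa3, Hoxa4, Hoxa5, Hoxa9 and Hoxa10 were the same in all 9 libraries, to both decimals, as those of 1 or 2 further entries of the table that carry LOC names (LOC108348320, LOC100360577, LOC103689922 and LOC103692127, LOC103689925 and LOC103692128, and LOC100911668, in this order). Among the 13914 entries of the table with a mean of at least 1 FPKM, 0.316% shared all 9 values with another such entry, and among the 27 Hox entries at that level 4 did so. How reads that match several entries had been assigned is not given in the sources used here, so the level of these 5 genes is uncertain. With the copies added to the named gene, Hoxa9 had a mean of 16.4 FPKM, Hoxa10 of 15.8 and Hoxa5 of 5.48, and both Hoxa9 and Hoxa10 then stood above Hoxd9. The order of the clusters changed too, from Hoxd with 31.8% of the summed Hox FPKM, Hoxb with 28.5%, Hoxc with 20.1% and Hoxa with 19.6% to Hoxa with 32.4%, Hoxd with 26.7%, Hoxb with 23.9% and Hoxc with 16.9%. Paralog number 9 held the largest share either way, with 25.6% when copies were added, but numbers 8 and 10 changed places, with 12.7% for number 8 and 16.3% for number 10.

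The comparison of CPIP with Sham asks what the injury changed in the ganglia. The Hoxb cluster is given first, a choice made after the values were seen. Its 8 tested genes were all lower in CPIP than in Sham by their log2 fold change, with a median of -0.23. The 10 Hoxb entries summed to 42.9, 37.4 and 41.9 FPKM in Sham, 33.6, 35.2 and 34.9 with CPIP and 34.8, 35.3 and 34.4 with CPIP+EA. All 3 Sham libraries were above the 6 others. The sums of the Hoxa, Hoxc and Hoxd clusters overlapped between the groups, with 21.5 to 27.4 FPKM in Sham and 24.4 to 26.4 in CPIP for Hoxa, 24.8 to 27.6 and 25.5 to 28.2 for Hoxc, and 39.9 to 41.4 and 36.6 to 42.8 for Hoxd. In bulk tissue, fewer cells of a type and less RNA per cell cannot be told apart.

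Gene by gene, none of the 33 tested Hox genes passed the threshold in CPIP vs Sham, an adjusted p under 0.01 with a change of at least 1.5-fold in limma, where 61 of all 17187 genes, or 0.355%, did. At an unadjusted p under 0.05 there were 2 Hox genes, both lower, where 8.66% of all genes passed. Hoxb2 had a log2 fold change of -0.41 ± 0.10 (SE) with an adjusted p of 0.146 in limma. Hoxb9 had a log2 fold change of -0.39 ± 0.12 (SE) with an adjusted p of 0.269. Over the 33 genes, 22 were lower and 11 higher, where 52.1% of all genes were lower, and the median log2 fold change was -0.05 against -0.01 for all genes. The groups did not overlap for 4 Hox genes, Hoxb2, Hoxb9 and Hoxd8 lower and Hoxa9 higher in CPIP, against 15.9% of all genes. Over all 9 libraries the counts at p under 0.05 and without overlap thus lay below the shares of all genes, and the share of lower genes lay above. Hoxb8 had a log2 fold change of -0.29 ± 0.14 (SE), with an adjusted p of 0.608. With CPIP replicate 1 left out, 4 Hox genes in place of 2 were at an unadjusted p under 0.05, or 12.1% against 7% of all genes in that fit, so the side on which the Hox share lay depended on the libraries used.

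The genes with the highest deposited mean in each cluster had small changes. Hoxa9, which stood above Hoxa10 when copies were added, had a log2 fold change of 0.17 ± 0.09 (SE) in CPIP vs Sham. In CPIP vs Sham the log2 fold change was 0.02 ± 0.08 (SE) for Hoxa10, -0.10 ± 0.10 for Hoxb3, 0.10 ± 0.12 for Hoxc9 and 0.0021 ± 0.10 for Hoxd9. The value of Hoxb3 ranged from -0.16 without Sham replicate 2 to -0.0052 without CPIP replicate 1. For 22 of the 33 genes the 95% confidence interval of the fold change lay within 1.5-fold in both directions. For the other 11 the interval reached further. Hoxb2, with -0.63 to -0.19, and Hoxb9, with -0.66 to -0.13, were among these with intervals narrower than the Hox median and wholly below 0. The intervals of Hoxd10, Hoxd11, Hoxc11 and Hoxa6 were wider than the median and included 0.

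**Figure D3:**
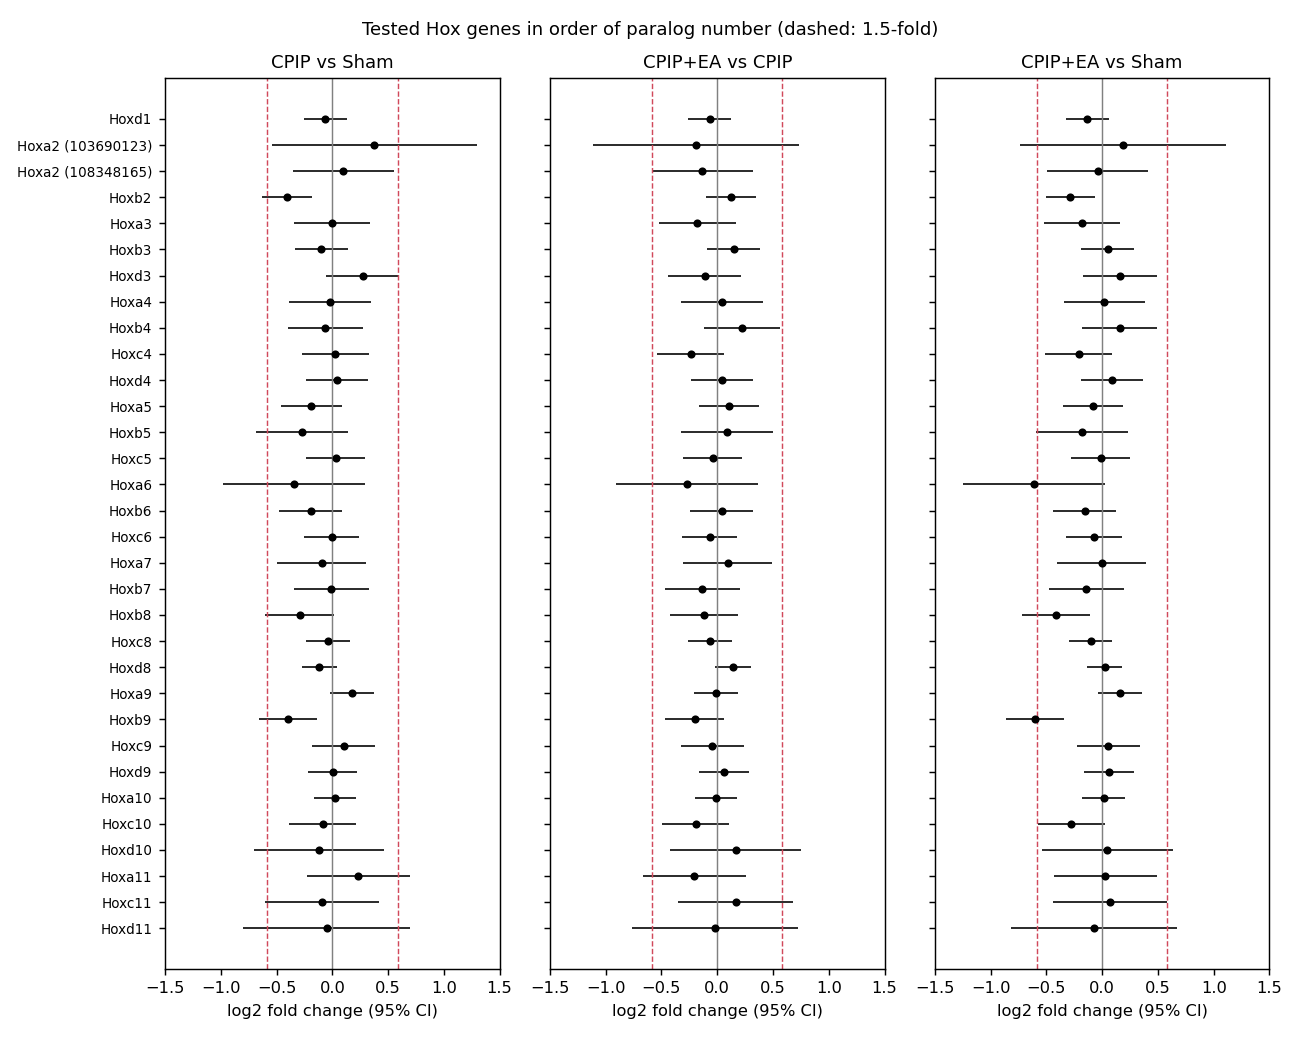
log2 fold change (horizontal axes) of tested Hox genes in order of paralog number, in 3 panels for CPIP vs Sham, CPIP+EA vs CPIP and CPIP+EA vs Sham. Points are limma estimates with 95% confidence intervals and dashed lines mark 1.5-fold; Hoxb9 at -0.60 in CPIP+EA vs Sham has an interval of -0.86 to -0.34, and the widest interval belongs to a Hoxa2 entry at 0.420 FPKM.

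The comparison of CPIP+EA with CPIP asks what the treatment changed in injured rats. No Hox gene passed the threshold in limma, none was at an unadjusted p under 0.05, and the smallest adjusted p of a Hox gene was 0.996. Over all genes, 0 of 17187 passed, or 0%, and 4.29% were at an unadjusted p under 0.05. The 3 Hox genes with the smallest p were Hoxd8, with a log2 fold change of 0.14 ± 0.07 (SE), Hoxc4 with -0.24 ± 0.13 and Hoxb9 with -0.20 ± 0.12. The value of Hoxb9 was -0.32 without CPIP replicate 2 and -0.13 without CPIP replicate 3. Hoxd8, higher in CPIP+EA, and Hoxc4, lower, were also the only 2 Hox genes whose groups did not overlap, against 8.23% of all genes. Of the 33 Hox genes, 19 were lower and 14 higher in CPIP+EA, where 45.9% of all genes were lower. Their median log2 fold change was -0.02 against 0.01 for all genes. Intervals lay within 1.5-fold for 26 of the 33. The cluster leaders had log2 fold changes of -0.01 ± 0.08 (SE) for Hoxa10, 0.15 ± 0.10 for Hoxb3, -0.05 ± 0.12 for Hoxc9 and 0.06 ± 0.10 for Hoxd9. Without CPIP replicate 1 the value of Hoxb3 was 0.05, and with any other library left out it was at most 0.20. Leaving out CPIP replicate 2 and CPIP+EA replicate 3 together, the libraries with high muscle and neutrophil markers, gave 2 Hox genes at an unadjusted p under 0.05, or 6.06% against 4.84% of all genes in that fit, and 0 past the threshold.

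The comparison of CPIP+EA with Sham shares its control libraries with CPIP vs Sham and is not an independent repeat of it. In limma 0 Hox genes passed the threshold, where 83 genes, or 0.483% of all, did. At an unadjusted p under 0.05 there were 3 Hox genes, all in the Hoxb cluster and all lower in CPIP+EA, against 12.2% of all genes. Hoxb9 had a log2 fold change of -0.60 ± 0.12 (SE), with an adjusted p of 0.0441 in limma, which misses the threshold of 0.01. Hoxb8 had a log2 fold change of -0.41 ± 0.14 (SE) and Hoxb2 of -0.29 ± 0.10, with adjusted p of 0.251 and 0.280. In the Hoxb cluster 6 of 8 tested genes were lower, with a median log2 fold change of -0.17, and over all 33 Hox genes 19 were lower, where 49.5% of all genes were lower. The groups did not overlap for 6 Hox genes against 16.2% of all genes. Hoxb2, Hoxb8, Hoxb9, Hoxd1 and Hoxa6 were lower in CPIP+EA and Hoxa9 was higher. With Sham replicate 2 left out, 5 Hox genes in place of 3 were at an unadjusted p under 0.05, or 15.2% against 9.68% of all genes in that fit, while over all libraries the Hox share was 9.09%. Intervals lay within 1.5-fold for 26 of the 33, and the leaders Hoxa10, Hoxb3, Hoxc9 and Hoxd9 had log2 fold changes of 0.01 ± 0.08, 0.05 ± 0.10, 0.06 ± 0.12 and 0.06 ± 0.10 (SE).

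Cell type markers are set beside the Hoxb genes here. The 10 fibroblast and meningeal markers had a median log2 fold change of -0.14 in CPIP vs Sham, with 1 at an unadjusted p under 0.05, and of -0.48 in CPIP+EA vs Sham, with 5 at that level, all lower, where 8.66 and 12.2% of all genes were at that level. The other lists are given in the same way. Of the 12 sensory neuron markers 9 were lower in both comparisons, with medians of -0.10 and -0.17, and the groups did not overlap for 6 of them, 4 lower and 2 higher, in CPIP vs Sham and for 4, 2 lower and 2 higher, in CPIP+EA vs Sham, against 15.9 and 16.2% of all genes. All 8 tested skeletal muscle markers were higher in both, with medians of 1.04 and 0.90. Of the 9 Schwann cell markers 8 were higher in CPIP vs Sham and 8 lower in CPIP+EA vs Sham, with medians of 0.08 and -0.29. All 7 neutrophil and marrow markers and all 4 tested spinal cord glia markers were higher in CPIP+EA vs Sham, with medians of 0.91 and 0.41, and 7 of 10 endothelial and mural markers were lower, with a median of -0.18. In CPIP vs Sham the medians of these lists were 0.09, -0.02 and -0.04, and satellite glial cell markers had medians of 0.02 and -0.03 in the comparisons of CPIP and CPIP+EA with Sham. In CPIP+EA vs CPIP the 8 tested Hoxb genes had a median of 0.06, with 5 higher and 3 lower. There 9 of 10 fibroblast and meningeal markers were lower, with a median of -0.35, and 8 of 9 Schwann cell markers, with -0.44. The medians there were -0.01 for sensory neuron, 0.02 for satellite glial cell, -0.10 for endothelial and mural and -0.10 for skeletal muscle markers. Neutrophil and marrow markers had 0.67 and spinal cord glia markers 0.35. The part of these cells in the Hoxb values was not tested. With CPIP replicate 2 and CPIP+EA replicate 3 left out, Hoxb9 had a log2 fold change of -0.28 in CPIP vs Sham and -0.61 in CPIP+EA vs Sham, the latter with an adjusted p of 0.0412 in limma.

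**Figure D4:**
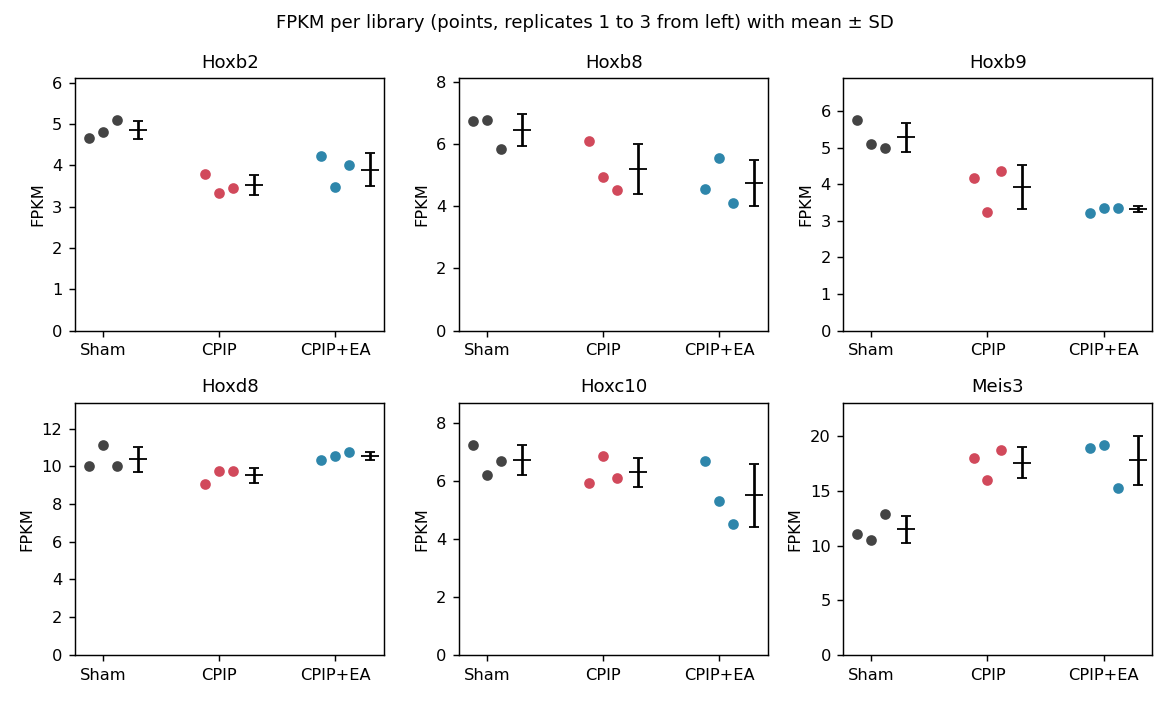
FPKM (vertical axes, from 0) in each library of Sham, CPIP and CPIP+EA for Hoxb2, Hoxb8, Hoxb9, Hoxd8, Hoxc10 and the cofactor Meis3. Points are replicates 1 to 3 and bars the mean ± SD of 3 libraries; the Sham libraries of Hoxb9 lie between 5.00 and 5.74 FPKM, above all libraries of the other groups, and those of Meis3 lie below all others.

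Some Hox genes varied between rats of the same group more than others. The SD of the log2 values within groups had a median of 0.157 over the 27 Hox genes with a mean of at least 1 FPKM, against 0.129 over all 13914 tested genes at that level, and the Hox genes had the lower median level, 4.09 against 10.8 FPKM. The largest values among these 27 genes belonged to Hoxd11 with 0.479, Hoxd10 with 0.371 and Hoxc11 with 0.314. The smallest belonged to Hoxc8 with 0.0609 and Hoxd8 with 0.0625. Hoxd3, at a level like that of Hoxd10 and Hoxd11, had 0.179. The values of Hoxd11 and Hoxd10 rested on CPIP+EA replicate 3. Without it they were 0.252 and 0.222, Hoxc11 stood first with 0.283, and Hoxa7, with 0.248, lay above Hoxd10. Hoxa10, with 0.0887 over all libraries, was among the 4 steadiest together with Hoxc8, Hoxd8 and Hoxa9.

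Hoxd10 and Hoxd11, neighbours in the cluster whose promoters are printed above, varied together. Both were lowest in CPIP+EA replicate 3 and next lowest in CPIP replicate 1, and highest in CPIP+EA replicates 2 and 1. Across the 9 libraries their FPKM had a Pearson r of 0.965, with an exact permutation p of 1.10e-05 (two-sided) and an adjusted p of 0.00387 over the 351 pairs of the 27 genes. Spearman's rho was 0.950, with an exact permutation p of 0.000353 and an adjusted p of 0.124. Without the 2 libraries farthest from the median of Hoxd10 on this log2 scale, CPIP replicate 1 and CPIP+EA replicate 3, Pearson's r was 0.948. This was the only pair of the 351 with an adjusted p under 0.05 for r, and 22 pairs had an unadjusted p under 0.05. The next pair was Hoxa7 and Hoxa10, with an r of 0.901 and an exact permutation p of 0.00110, adjusted p of 0.193. Each group supplied only 3 libraries, so no correlation within a group was computed.

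**Figure D5:**
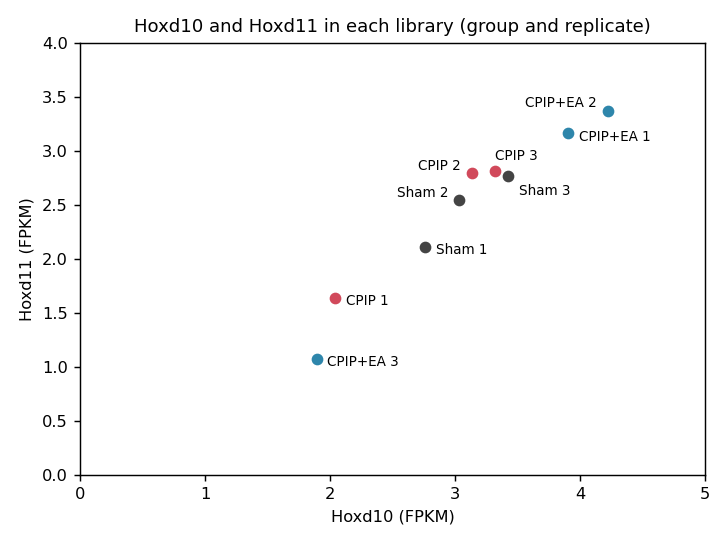
FPKM of Hoxd11 (vertical axis) against FPKM of Hoxd10 (horizontal axis), with 1 point for each of the 9 libraries, named by group and replicate. The points rise together, from 1.89 and 1.07 FPKM in CPIP+EA replicate 3 to 4.22 and 3.37 in CPIP+EA replicate 2, and the colours of the 3 groups are mixed along the line.

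The balance between the tail end and the middle of the Hox series was also computed per library. As the log2 ratio of the summed FPKM of numbers 10 to 13 to that of numbers 4 to 9, it was -2.29 in CPIP+EA replicate 3 and between -2.06 and -1.78 in the other 8 libraries, with CPIP replicate 1 inside that range at -1.99. Within Hoxc alone, which leaves out Hoxd10 and Hoxd11, it was -1.52 in CPIP+EA replicate 3 and between -1.29 and -0.93 in the others, and CPIP replicate 1 lay inside that range with -1.06. The group means of the ratio over all clusters, -1.98 ± 0.08 in Sham, -1.94 ± 0.05 with CPIP and -1.96 ± 0.29 with CPIP+EA (SD, n = 3 each), differed by less than the spread between libraries. CPIP+EA replicate 3 was also the library with neutrophil and marrow markers at 628.13 FPKM and the lowest sum of sensory neuron markers, 8424 FPKM, and CPIP replicate 1 had 156.76 and 9391. The part of these in the Hoxd values was not tested.

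The cofactors and regulators of the Hox genes were also present. The 9 cofactor genes summed to between 75.7 and 83.2 FPKM, led in their families by Pbx2 with a mean of 19.1 FPKM, Meis3 with 15.6 and Pknox2 with 13.6. Of the 24 upstream and chromatin regulators listed, 23 were in the table and summed to between 226 and 238 FPKM. The caudal factors that switch on Hox genes in the embryo were near 0, with means of 0.0833 FPKM for Cdx1 and 0.00889 for Cdx4, and Gdf11, a secreted signal that sets the start of the tail region, was at 11.0. In limma 0 of the 30 tested cofactors and regulators passed the threshold in any comparison, and 2, 2 and 6 were at an unadjusted p under 0.05 in CPIP vs Sham, CPIP+EA vs CPIP and CPIP+EA vs Sham, where 8.66, 4.29 and 12.2% of all genes were. Their median log2 fold changes were -0.01, -0.03 and -0.04.

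Meis3, a DNA-binding partner of HOX proteins in the hindbrain, was at 11.1, 10.5 and 12.9 FPKM in Sham, 18.1, 16.0 and 18.8 with CPIP and 19.0, 19.2 and 15.3 with CPIP+EA. The Sham libraries were all below those of both other groups, which overlapped with each other. Its log2 fold change was 0.60 ± 0.11 (SE) in CPIP vs Sham and 0.61 ± 0.11 in CPIP+EA vs Sham, 2 comparisons that share the Sham libraries, with adjusted p of 0.0566 and 0.0359 in limma, short of the threshold of 0.01. In CPIP+EA vs CPIP it was 0.01 ± 0.11.

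Further cofactors and regulators among those with the smallest p had lesser changes, none with an adjusted p under 0.1 in limma. In CPIP vs Sham the log2 fold change was 0.28 ± 0.11 (SE) for Meis2, another partner of HOX proteins. In CPIP+EA vs CPIP it was -0.17 ± 0.07 for Gdf11 and 0.32 ± 0.14 for Ezh2, the methyltransferase of Polycomb complex PRC2. In CPIP+EA vs Sham it was -0.38 ± 0.10 for Pknox2 and 0.45 ± 0.14 for Ezh2. Ezh2 was at 3.53, 4.34 and 4.34 FPKM in Sham, 4.87, 4.38 and 4.26 with CPIP and 4.88, 5.32 and 7.22 with CPIP+EA. Its highest value came from CPIP+EA replicate 3, the library with the highest neutrophil and marrow markers. Without that library its log2 fold change was 0.16 in CPIP+EA vs CPIP and 0.30 in CPIP+EA vs Sham.

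Genes that flank the Hox clusters without being Hox genes were read as neighbours. Of 15 listed, 12 were in the table and 9 were tested, and they summed to between 276 and 315 FPKM. In limma 0 of the 9 passed the threshold in any comparison, and 1, 0 and 1 were at an unadjusted p under 0.05 in the same order of comparisons, against 8.66, 4.29 and 12.2% of all genes. Their median log2 fold changes were -0.01, 0.06 and -0.01, and for all 9 the interval lay within 1.5-fold in each comparison. Evx2, which lies beyond Hoxd13 at the tail end of its cluster, had a mean of 0.00556 FPKM, near 0 like the Hox genes with numbers 12 and 13.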

How the data were processed

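RNA from the DRGs of 9 rats had been sequenced as single reads of 50 bases. The authors filtered reads with SOAPnuke 1.5.2, removing adaptors, reads with over 10% unknown bases and reads of low quality, and deposited an FPKM value, rounded to 2 decimals, for every gene of each library. Aligner, annotation, genome build and the handling of reads that match several genes are not given in the sources used here. The same table holds the authors' own group comparisons (log2 ratio, P-value and Q-value), which were not used.

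Groups and replicate numbers came from the labels, and each library is a separate rat. log2(FPKM + 0.5) of the 17187 genes with a mean of at least 0.1 FPKM was fitted in R 4.3.3 with the limma package (3.58.1; functions lmFit, contrasts.fit and eBayes, the last with trend), taking the 9 libraries together without covariates. Fold changes are therefore on the log2(FPKM + 0.5) scale, which understates changes of low genes. The Benjamini-Hochberg adjustment of the two-sided P-values covered every gene tested. A gene was called at an adjusted p under 0.01 with a change to at least 1.5 or at most 0.667. In simulated data with 100 genes changed 2-fold and 100 changed 4-fold between CPIP+EA and CPIP among 17270 genes, 80 and 91 of them and 1 unchanged gene were called. The changed genes were drawn from those with a mean above 1 FPKM. Changes under 2-fold, the size of every Hox estimate here, were not simulated. Correlations of log2(FPKM + 0.5) were tested over all 362880 permutations. Python 3.11.15 was used with pandas 2.3.3, scipy 1.17.1, numpy 2.4.6 and matplotlib 3.10.9.

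The members and the lists of cofactors, regulators, neighbours and markers were chosen with earlier results of these data known. Statistics are printed for the 3 Hox genes with the smallest p in each comparison, the highest gene of each cluster by deposited mean, and up to 3 cofactors or regulators with the smallest p per comparison. Hoxa9 in CPIP vs Sham was added, and other genes were named after their values were seen. Gene names and promoters came from RefSeq (GRCr8), in which 37 of the 41 Hox identifiers were found. Alternatives were other pseudocounts, filters, scalings, trends and thresholds, a replicate block, only 2 groups in the fit, and left-out libraries. Some genes of the set and of the lists are not reported here by name, and counts and sums include them.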

Additional observations from a re-analysis of the deposited data

How the results depend on the processing

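With FPKM alone, counting error is not known, and 3 libraries per group limit what can be seen. No Hox gene and no cofactor or regulator was called in any comparison under the alternatives, except 1 Hox gene (Hoxb9) and 1 cofactor (Meis3) in CPIP+EA vs Sham at an adjusted p under 0.05 with no fold limit. Over the alternatives the adjusted p of Hoxb9 in CPIP+EA vs Sham ranged from 0.0242 to 0.173, that of Hoxb2 in CPIP vs Sham from 0.107 to 0.411, and that of Meis3 from 0.0245 to 0.231 in CPIP vs Sham and from 0.0138 to 0.143 in CPIP+EA vs Sham. Hox genes at an unadjusted p under 0.05 numbered 2 to 4 (4 without CPIP replicate 1), 0 to 1 and 2 to 5 (5 without Sham replicate 2) in CPIP vs Sham, CPIP+EA vs CPIP and CPIP+EA vs Sham when 1 library was left out. In CPIP+EA vs CPIP there was 1 without Sham replicate 2, any CPIP replicate, or CPIP+EA replicate 1 or 3, and 1 with no filter or with only the 2 groups compared. The cause was not tested. Calls over all genes numbered 26 to 122, 0 to 2 and 35 to 226 over the alternatives, and 30 to 62, 0 to 2 and 35 to 82 with 1 library left out, against 61, 0 and 83.

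Small changes turned direction, each with an adjusted p over 0.8. With 1 library left out, the log2 fold change in CPIP vs Sham ranged from -0.0298 to 0.0573 for Hoxa10, -0.00536 to 0.18 for Hoxc9 and -0.0816 to 0.0541 for Hoxd9. In CPIP+EA vs CPIP it ranged from -0.0735 to 0.0334 for Hoxa10, -0.13 to 0.0610 for Hoxc9 and -0.0532 to 0.12 for Meis3. In CPIP+EA vs Sham it ranged from -0.0497 to 0.0572 for Hoxa10, -0.0180 to 0.11 for Hoxb3, -0.0250 to 0.12 for Hoxc9 and -0.00576 to 0.12 for Hoxd9. On the TPM scale, Hoxd9 was at -0.00783 in CPIP vs Sham, Meis3 at -0.00623 in CPIP+EA vs CPIP and Hoxa10 at -0.0155 in CPIP+EA vs Sham. With median centring, Hoxd9 was at -0.00422 in CPIP vs Sham and Hoxa10 at 0.000582 in CPIP+EA vs CPIP. Leaving out both CPIP replicate 2 and CPIP+EA replicate 3 gave -0.00437 for Hoxa10 and -0.00536 for Hoxc9 in CPIP vs Sham, 0.0616 for Hoxa10 and 0.12 for Hoxc9 in CPIP+EA vs CPIP, and 2 Hox genes at an unadjusted p under 0.05 there. This alternative, the spread without CPIP+EA replicate 3 and the adding of copies were chosen after seeing the data.

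Replicate numbers are shared by the groups, and deviations of same-numbered libraries had an r over genes from -0.24 to 0.30. Differently numbered libraries were not compared, so these values cannot show whether the numbers mark pairs. The main fit did not take the numbers as pairs. With the replicate block 0 Hox genes were called in each comparison, 3, 0 and 3 were at an unadjusted p under 0.05, and calls over all genes numbered 26, 0 and 42.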
